A study of Mus musculus with 2 samples.

Results

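The histone deacetylase genes considered here are 9 of the 21887 protein-coding genes of the mouse annotation: Hdac1, Hdac2 and Hdac3 of class I, and 6 others, namely Hdac4, Hdac5, Hdac7 and Hdac9 of class IIa, Hdac10 of class IIb and Hdac11, the only class IV gene. They were chosen by name. A peak was given to a gene when its summit lay in the gene body or within 50 kb of either annotated end, and no windows of the 9 genes overlapped. By this rule they held 267 of the 240661 peaks of the IL-4 list and 140 of the 149349 peaks of the untreated list. X-linked histone deacetylase genes were not analysed here.

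The peaks come from CUT&Tag, in which an antibody brings a transposase to chromatin so that DNA beside the target protein is tagged and sequenced. The antibody was raised against PHLPP1, a protein phosphatase. The cells were mouse bone marrow-derived macrophages grown with M-CSF at 20 ng/ml, and the design text describes wild-type cells, while the sample labels themselves name no genotype. One group received IL-4 at 20 ng/ml for 4 h and the other was untreated, with 1 library in each. No source used here gives the strain, age or sex of the mice or how many were used. No library from PHLPP1-deficient cells or with a control antibody was analysed here.

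Histone deacetylases remove acetyl groups from lysines of histones and other proteins, which is generally linked to less active chromatin. Class I enzymes are mostly nuclear and work as the catalytic parts of large corepressor assemblies: Hdac1 and Hdac2 in the Sin3, NuRD and CoREST complexes, Hdac3 in the NCoR and SMRT complex. Class IIa enzymes have little catalytic activity of their own on acetyl-lysine, bind MEF2 transcription factors and shuttle between nucleus and cytoplasm with phosphorylation and binding of 14-3-3 proteins. In macrophages, Hdac3 is known as a regulator of inflammatory and IL-4-driven gene programmes.

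The IL-4 list was 1.61 times as long as the untreated list, and its library had the lower local background, with a lowest value of 0.643 fragments against 0.936 in the untreated library. Its weakest peaks rested on 3 fragments, against 4 in the untreated list. A share of 61.7% of all peaks therefore stood in the IL-4 list, and 63.9% of the peaks counted over all protein-coding genes, which is the level to read the members' shares against. Of 10 macrophage marker genes, 6 had an IL-4 peak and 1 an untreated peak within 1 kb of an annotated end, beside 49.3% and 22.7% of all genes. The numbers were 2 and 0 for 6 neutrophil genes, 2 and 3 for 5 T cell genes, 2 and 3 for 5 B cell genes, and 3 and 1 for 5 erythroid genes. At q of at most 0.05, IL-4 peaks of 2 of the 10 macrophage genes were left, beside 18.3% of all genes. None of the other 4 lists, of 5 or 6 genes each, had one left, and lists this small cannot be set apart from that share. Such peaks do not measure expression, so the cell type itself was not checked by them.

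Hdac2 had the strongest peak of all 9 genes, at its start, and that peak stood in the IL-4 list alone. It lay on chromosome 10 from 36974120 to 36974858 (GRCm38, the build mm10), with its summit 169 bp before the transcription start that RefSeq lists, at 36974544. Its summit held 11 fragments, with a 95% interval of 5.49 to 19.7 from the exact Poisson distribution, and a fold of 6.94 over the authors' local background, with a −log10 q of 5.94, where q is the authors' false discovery rate for a peak. Intervals of fragments cover counting error only. Of the 240661 IL-4 peaks 493 were as strong (0.205%), and 0.350% were as wide as its 739 bp. The untreated list had no peak in the Hdac2 body, and its nearest, of 7 fragments (2.81 to 14.4), lay 7097 bp outside the gene at a −log10 q of 1.57. Hdac2 has no other protein-coding gene within 50 kb, so its peaks lie beside no other such gene's end.

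Hdac4 had an IL-4 peak over part of its listed promoter, upstream of the listed start and not over it. That start lies inside the annotated gene, so a search at the gene's outer ends missed the peak. The peak ran from 92180366 to 92180943 on chromosome 1, 578 bp wide, with its summit 131 bp before the start at 92180341. It had 8 fragments (3.45 to 15.8), a fold of 4.48 and a −log10 q of 2.38, and 1.29% of IL-4 peaks were as wide. No untreated peak overlapped it. Hdac5 had a weak IL-4 peak over its promoter, of 3 fragments (0.619 to 8.77) with a −log10 q of 0.393, the lowest value of that list.

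RefSeq promoter sequences (GRCm38.p6, from 250 bases before to 50 after a start) were at hand for 6 members, with several starts for Hdac7 and Hdac9. An IL-4 peak covered some part of the listed promoters of Hdac2, Hdac4 and Hdac5, 3 of 6 genes, beside 28.2% of 17492 protein-coding genes in that table. An untreated peak covered none of the 6, beside 6.75% of genes. Within 1 kb of a listed start, Hdac2, Hdac4, Hdac5, Hdac7 and Hdac9 had an IL-4 summit, 5 of 6 beside 43.3% of genes, and Hdac7 and Hdac11 had an untreated summit, 2 of 6 beside 15.6%. The several starts of Hdac7 and Hdac9 gave them more places for a summit. Hdac9 was counted by a peak of 4 fragments, 744 bp before its inner start, at a −log10 q of 0.753. The promoters shown are those of Hdac2 and Hdac4, which lay under the strongest promoter peaks, of Hdac11, whose untreated peak lay just after its start, and of the outermost start of Hdac9, which no peak of either list covered. Capitals mark GGGCGG, the core of a GC box, and CCAAT, a common promoter box, on either strand, and each is printed 5′ to 3′ on the gene's strand.
Hdac2, plus strand, chr10:36974294-36974593: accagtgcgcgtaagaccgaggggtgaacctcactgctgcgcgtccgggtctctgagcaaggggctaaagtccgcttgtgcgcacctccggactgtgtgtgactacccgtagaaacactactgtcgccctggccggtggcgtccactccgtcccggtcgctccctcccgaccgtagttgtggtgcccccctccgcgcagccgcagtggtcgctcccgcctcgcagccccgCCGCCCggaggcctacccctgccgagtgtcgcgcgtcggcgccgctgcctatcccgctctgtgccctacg
Hdac4, minus strand, chr1:92180292-92180591: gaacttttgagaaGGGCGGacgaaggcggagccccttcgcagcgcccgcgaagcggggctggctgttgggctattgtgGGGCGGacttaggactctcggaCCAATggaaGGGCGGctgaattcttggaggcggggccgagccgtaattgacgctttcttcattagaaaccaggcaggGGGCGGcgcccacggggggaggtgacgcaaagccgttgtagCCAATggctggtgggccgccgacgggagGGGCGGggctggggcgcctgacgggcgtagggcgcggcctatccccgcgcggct
Hdac11, plus strand, chr6:91156565-91156864: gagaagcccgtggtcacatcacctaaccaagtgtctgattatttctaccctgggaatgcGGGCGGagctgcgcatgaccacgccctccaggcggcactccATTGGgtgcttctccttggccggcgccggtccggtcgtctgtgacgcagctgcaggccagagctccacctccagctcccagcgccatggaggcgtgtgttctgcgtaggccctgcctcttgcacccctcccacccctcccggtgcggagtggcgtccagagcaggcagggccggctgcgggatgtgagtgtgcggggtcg
Hdac9, minus strand, chr12:34917046-34917345: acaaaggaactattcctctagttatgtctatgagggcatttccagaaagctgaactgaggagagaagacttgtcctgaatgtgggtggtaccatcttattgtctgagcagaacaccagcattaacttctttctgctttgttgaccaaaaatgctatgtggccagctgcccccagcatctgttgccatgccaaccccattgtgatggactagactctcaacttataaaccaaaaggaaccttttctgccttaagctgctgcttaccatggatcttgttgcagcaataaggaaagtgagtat

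The Hdac2 and Hdac4 promoters were rich in CpG sites and the Hdac9 promoter had none. Hdac2 held 36 CpG sites at 69.7% GC, Hdac4 32 at 68.0%, Hdac11 22 at 66.7% and Hdac5 18 at 60.7%, against medians of 13 sites and 56.3% over 21230 promoters. The outermost Hdac9 promoter held 0 CpG sites at 44.0% GC and its inner promoter 3 at 45.3%. Hdac7 was mixed: its 2 neighbouring inner promoters held 31 and 35 CpG sites at 73.7% and 65.7% GC, the outermost 6 at 54.7%, and the innermost 5 at 60.7%.

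GGGCGG, present in 46.2% of promoters, occurred 5 times in Hdac4, 1 time each in Hdac2, Hdac5, Hdac11 and 1 inner Hdac7 promoter, and not in Hdac9. The box CCAAT, present in 38.2%, occurred 2 times each in Hdac4 and Hdac5 and 1 time in Hdac11. Hdac5 held 1 match each of CACGTG (an E-box, in 7.84%) and TGACGT (part of a cyclic AMP response element, in 8.49%), and the outermost Hdac9 promoter 1 of TATAAA (in 12.6%). The STAT palindrome TTCNNNGAA, in 7.69% of promoters, was found in 2 inner Hdac7 promoters, 1 and 2 times, and Hdac11 held 1 match of GCGCATG, part of the NRF1 site, in 4.80%. Matches of CCGGAAG, the ETS core found in 11.6%, and AGGAAGT, part of the PU.1 site found in 9.07%, were absent from these windows. These are letter matches on both strands, counted separately even where they overlap, and do not show binding.

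All 3 class I genes had gene-end peaks, meaning summits within 1 kb of an annotated end, with IL-4 and none without it, against 1 of the 6 others, Hdac5. Over the 9 genes, IL-4 gene-end peaks stood at 7, beside 49.3% of all protein-coding genes, and untreated ones at 3 (Hdac4, Hdac7 and Hdac11), beside 22.7%. The IL-4 list alone had one for 4 of 9, beside 35.5%, both lists for 3, beside 13.8%, and neither for Hdac9 and Hdac10, 2 of 9 beside 41.8%. The contrast between the classes depended on the distance. Within 3 kb of an end, 9 of 9 had an IL-4 peak and 6 had one in the IL-4 list alone, with Hdac9 and Hdac10 added. Within 500 bp the number in the IL-4 list alone was 4. The share of all genes at these 2 distances was not counted. With 1 library per group and 3 genes in class I, these counts have no test.

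Most of these gene-end peaks were weak. At a q of at most 0.05, 1 of 9 members had one in the IL-4 list, Hdac2, beside 18.3% of genes, and 2 had one in the untreated list, Hdac7 and Hdac11, beside 4.02%. Past a −log10 q of 5, Hdac2 was again the 1 member of 9, beside 2.63% of genes.

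Hdac1 had IL-4 gene-end peaks of 4 fragments (1.09 to 10.2) and 5 fragments (1.62 to 11.7), 735 bp inside and 233 bp outside its high-coordinate end, at −log10 q of 0.753 and 1.26. The gene, which encodes the founding catalytic subunit of the Sin3 and NuRD complexes, runs from 129516104 to 129542646 on chromosome 4. The first of these summits was its only peak in the gene body in either list, and no peak of Hdac1 passed a q of 0.05. Its nearest untreated peak lay 13822 bp outside the gene, with 5 fragments. That site, near Lck, also had an IL-4 peak, of 4 fragments.

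Hdac3, the catalytic subunit of the NCoR and SMRT complex, runs from 37936971 to 37955015 on chromosome 18. A total of 3 IL-4 peaks stood at its high-coordinate end, with 5 (1.62 to 11.7), 4 (1.09 to 10.2) and 6 (2.2 to 13.1) fragments at −log10 q of 0.753, 0.393 and 1.26. Each also lay within 1 kb of an end of Rell2, which begins 39 bp away, so they cannot be assigned to 1 of these genes. Another IL-4 peak of 6 fragments with a −log10 q of 1.84 lay 1307 bp beyond the other end of Hdac3 and 42 bp from an end of Diaph1. The untreated list had nothing in the gene or within 10 kb of it: its nearest peak, of 7 fragments (2.81 to 14.4) and a −log10 q of 1.57, was 10338 bp away.

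No untreated peak stood in the body of any class I gene, over 72.2 kb in all, whereas the IL-4 list had 6 there. Untreated bodies without a peak were common: 4 of 9 members, the 3 class I genes and Hdac10, beside 44.9% of all genes. In the IL-4 list Hdac10 alone had none, beside 28.5%. The class I bodies had 8.31 IL-4 peaks per 100 kb (3.05 to 18.1) and 0 untreated peaks, with an upper bound of 5.11, against 10.4 and 6.30 pooled over all genes. Long genes weigh most in the pooled values, and class I was not compared with genes of like length.

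**Figure D1:**
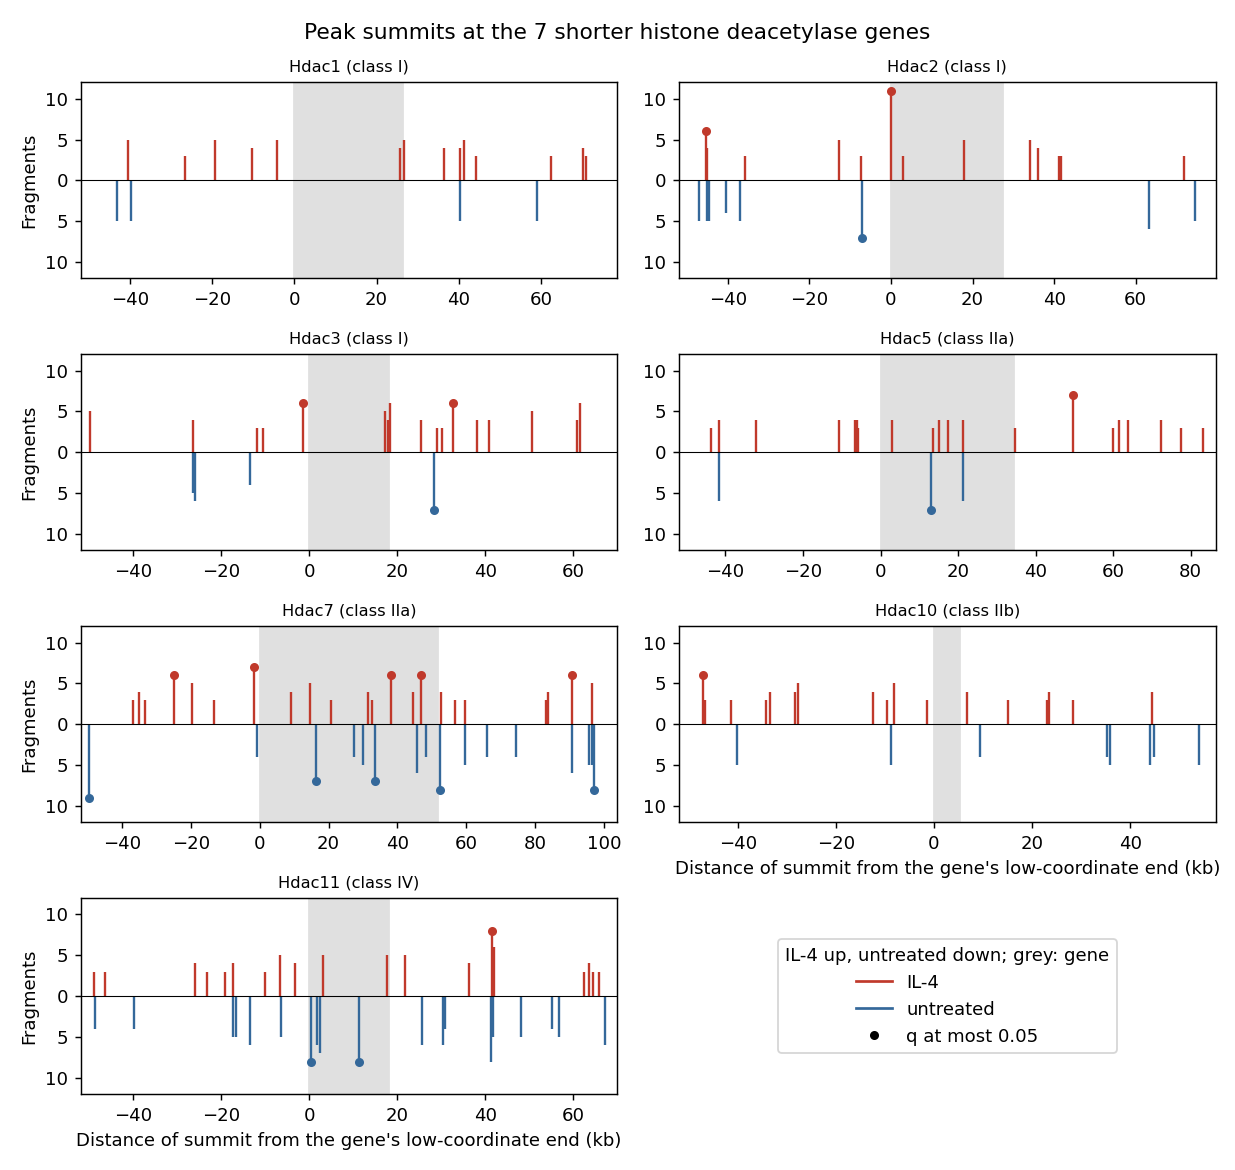
Each line is a peak summit, placed by its distance in kb from the gene's low-coordinate end, with the fragments at the summit upward for IL-4 and downward for untreated and dots at q of at most 0.05. Grey marks the gene. The tallest line is the Hdac2 start peak of 11 fragments, and the grey bodies of Hdac1, Hdac2, Hdac3 and Hdac10 hold no untreated summit.

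Hdac4, Hdac7 and Hdac11 had gene-end peaks in both lists, which overlapped at Hdac7 and stood at opposite ends of Hdac4 and Hdac11. At Hdac7, a class IIa enzyme best known from thymocytes and blood vessel lining, an IL-4 peak of 4 fragments (1.09 to 10.2) overlapped an untreated peak of 8 (3.45 to 15.8), with summits 713 and 660 bp before its outermost listed start, at −log10 q of 0.753 and 2.08. The intervals overlap, and the folds over background were 2.95 and 4.65. At its 3′ end an untreated peak of 4 fragments, 913 bp outside, also lay within 1 kb of an end of Slc48a1, which overlaps Hdac7. A pair of IL-4 peaks of 6 fragments lay inside Hdac7, at a −log10 q of 1.69 and 1.72, the first 634 bp after an inner start and 452 bp wide.

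Hdac4, which runs from 91928779 to 92195702 on chromosome 1 and whose product is held in the cytoplasm by 14-3-3 proteins when phosphorylated, had 3 IL-4 peaks within 1 kb of its upstream end, of 5, 3 and 3 fragments. The untreated list had 1 of 5 fragments (1.62 to 11.7) at its 3′ end, with a −log10 q of 0.737. Hdac5, a close relative that restrains MEF2 factors in muscle, runs from 102195747 to 102230172 on chromosome 11 and had its 3-fragment IL-4 peak 326 bp before its start. Its nearest untreated peaks were in the gene body, of 7 and 6 fragments.

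Hdac11, whose enzyme removes long-chain fatty acyl groups and is known in myeloid cells for restraining Il10, had its IL-4 gene-end peak at the 3′ end and its untreated one at the start. The IL-4 peak had 5 fragments (1.62 to 11.7), with a −log10 q of 1.26. The untreated peak, on chromosome 6 from 91156884 to 91157034, had 8 (3.45 to 15.8), with a −log10 q of 1.90, and its summit lay 172 bp after the listed start. The body of Hdac11 held 2 IL-4 peaks and 4 untreated peaks, of 6 to 8 fragments in the untreated list. Hdac10, a class IIb gene whose enzyme deacetylates polyamines, spans 5398 bp and had no peak in its body or within 1 kb of its ends in either list. Its nearest IL-4 peak, of 4 fragments, lay 1281 bp outside and 603 bp from an end of Mapk12, and its nearest untreated peak 3996 bp outside.

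The number of peaks over body and flanks was higher in the IL-4 list for 8 of the 9 genes and equal for Hdac11. That list was 1.61 times as long as the untreated list, and the share of all genes with more IL-4 peaks was not counted. The IL-4 and untreated lists held 14 and 4 peaks for Hdac1, 13 and 8 for Hdac2, and 17 and 4 for Hdac3. They held 61 and 38 for Hdac4, 20 and 3 for Hdac5, 22 and 16 for Hdac7, 84 and 40 for Hdac9, 17 and 8 for Hdac10, and 19 and 19 for Hdac11. Hdac4 and Hdac9, which had the most peaks, are also the longest of these genes.

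**Figure D2:**
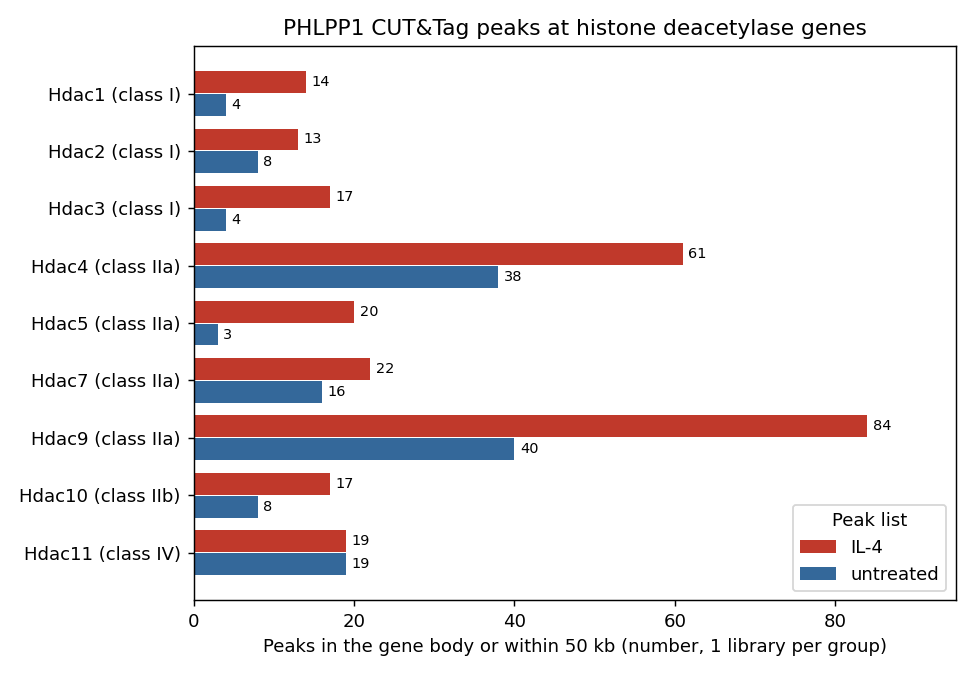
Bars give the number of peaks with a summit in the gene body or within 50 kb, the IL-4 list above the untreated list, 1 library each. The IL-4 bar is longer for every gene but Hdac11, where both reach 19, and the whole IL-4 list was 1.61 times as long as the untreated list.

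With 1 added to each number, 5 of 9 genes had at least 2 times as many peaks in the IL-4 list (Hdac1, Hdac3, Hdac5, Hdac9 and Hdac10), beside 40.6% of all genes, and 0 of 9 had the reverse, beside 0.740%. Hdac5 stood highest with a log2 ratio of 2.39, which 2.63% of all genes reached, then Hdac3 with 1.85 (8.35%) and Hdac1 with 1.58 (15.2%). Hdac9 had 1.05, Hdac10 1.00, Hdac4 0.67, Hdac2 0.64, Hdac7 0.44 and Hdac11 0.00, where 93.0% of genes were as high. The median over the 9 was 1.00, against 0.79 over all genes. Peaks of at least 4 fragments, the level listed in both libraries, left 3 of the 9 past 2 times, beside 20.6% of all genes, with 10 and 4 peaks for Hdac1, 13 and 4 for Hdac3 and 13 and 3 for Hdac5.

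The share of peaks that came from the IL-4 list was nominally higher for class I than for the others, and the intervals overlapped. Of 60 class I peaks in both lists together, 44 were in the IL-4 list (73.3%, Wilson 95% interval 61.0 to 82.9), and of 347 peaks of the other genes 223 were (64.3%, 59.1 to 69.1). Closer to the genes the shares lay further apart: with 10 kb flanks 15 of 16 class I peaks were in the IL-4 list (93.8%, 71.7 to 98.9) against 152 of 238 for the others (63.9%, 57.6 to 69.7), where all genes pooled gave 63.4%. Those 15 include the Hdac3 peaks that also lay within 1 kb of ends of Rell2 and Diaph1, and the share without them was not counted. With 100 kb flanks the shares were 63.9% and 64.1%. Peaks near one another are not independent, so these intervals are too narrow by an unknown amount.

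**Figure D3:**
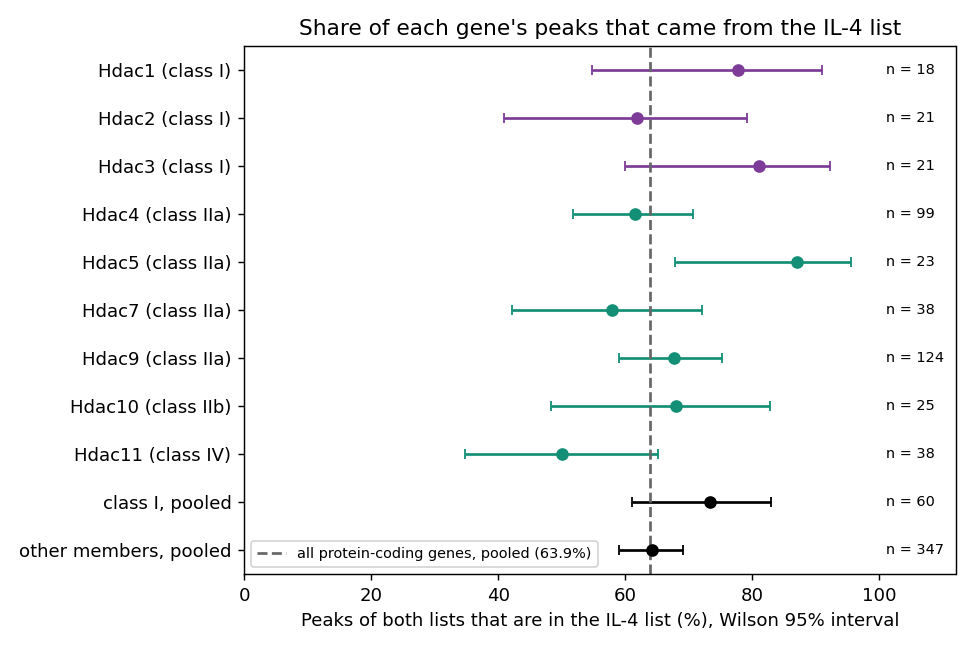
Points give the percent of a gene's peaks, both lists together, that came from the IL-4 list, with Wilson 95% intervals, class I genes first and the pooled classes last, and n the number of peaks. The interval of Hdac5 (87.0%, 67.9 to 95.5) lies above the 63.9% of all protein-coding genes, and those of the other 8 genes include it. Without peaks at ends of other genes the Hdac5 interval includes it too (82.4%, 59.0 to 93.8).

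Ends of neighbouring genes held some of these peaks. Gene-end peaks were more common in the IL-4 list over all protein-coding genes too, at 49.3% of genes against 22.7%. The share of all peaks that lay at ends of coding genes was not counted. In the IL-4 list 20 of the 267 peaks lay within 1 kb of an end of another protein-coding gene, against 2 of 140 in the untreated list. The IL-4 ones stood at G6pc3, Asb16 and Tmem101 beside Hdac5, at Trabd, Selenoo and Mapk12 beside Hdac10, at Rell2, Diaph1, Fchsd1 and Arap3 beside Hdac3, at Fam167b and at Bsdc1 and Tssk3 beside Hdac1, and at Rapgef3 beside Hdac7, and the untreated ones at Slc48a1 and Fbln2, beside Hdac7 and Hdac11. Without all of these the share in the IL-4 list was 69.2% (55.7 to 80.1) for class I and 63.4% (58.1 to 68.4) for the others. Hdac5 had 6 of its 20 IL-4 peaks and 0 of its 3 untreated peaks at such ends, and its share without them was 82.4% (59.0 to 93.8), an interval that includes the 63.9% of all genes. The widest IL-4 peak beside these genes, 941 bp with 7 fragments (2.81 to 14.4) at a −log10 q of 2.58, lay 15296 bp before the start of Hdac5 and 3389 bp from an end of Hrob, the nearest of any coding gene. Only 0.0740% of IL-4 peaks were as wide.

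Among the long genes, the Hdac4 body was denser in peaks than those of most genes of like length, and the Hdac9 body was not. The Hdac4 body held 43 IL-4 peaks and 27 untreated peaks, 16.1 (11.7 to 21.7) and 10.1 (6.67 to 14.7) per 100 kb. Of 795 genes within 1.5 times its length, 4.78% were as dense in IL-4 peaks and 16.9% in untreated peaks. Hdac9, which spans 869516 bp and is the MEF2-binding class IIa gene with a known truncated product, held 69 and 35, or 7.94 and 4.03 per 100 kb. Of 142 genes of like length 76.8% and 89.4% were as dense.

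Of 3 equal parts of Hdac4 counted from its upstream end, the IL-4 list had 15, 10 and 18 peaks and the untreated list 11, 2 and 14. The middle part had 11.2 IL-4 peaks per 100 kb (5.39 to 20.7), whose interval overlaps those of the outer parts. It had 2.25 untreated peaks per 100 kb (0.272 to 8.12), against 12.4 (6.17 to 22.1) and 15.7 (8.60 to 26.4) in the outer parts. That untreated interval overlaps the one of the first part and lies below the one of the last. Along Hdac9 the IL-4 list had 27, 21 and 21 peaks and the untreated list 17, 12 and 6.

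The share of stronger peaks had an interval apart from the level of all peaks only for Hdac4, in the IL-4 list. At q of at most 0.05, 15 of 61 IL-4 peaks of Hdac4 passed (24.6%, 15.5 to 36.7) and 3 of its 38 untreated peaks (7.89%, 2.72 to 20.8), against 12.5% and 14.6% of all peaks. For Hdac9 it was 11 of 84 (13.1%, 7.47 to 21.9) and 9 of 40 (22.5%, 12.3 to 37.5). Hdac7 had 5 of 22 (22.7%, 10.1 to 43.4) and 5 of 16 (31.2%, 14.2 to 55.6). Hdac1 had 0 in both lists, with upper bounds of 21.5% and 49.0%. The strongest IL-4 peaks of Hdac9 had 8 fragments (3.45 to 15.8) at a −log10 q of 3.40, from 34793678 to 34793862 on chromosome 12, and those of Hdac4 8 fragments at 3.03, from 92112492 to 92112849, and 9 (4.12 to 17.1) at 2.58. Among untreated peaks of these genes the strongest were 9 fragments at a −log10 q of 2.70, 49480 bp from Hdac7, and 9 at 2.40 inside Hdac4.

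**Figure D4:**
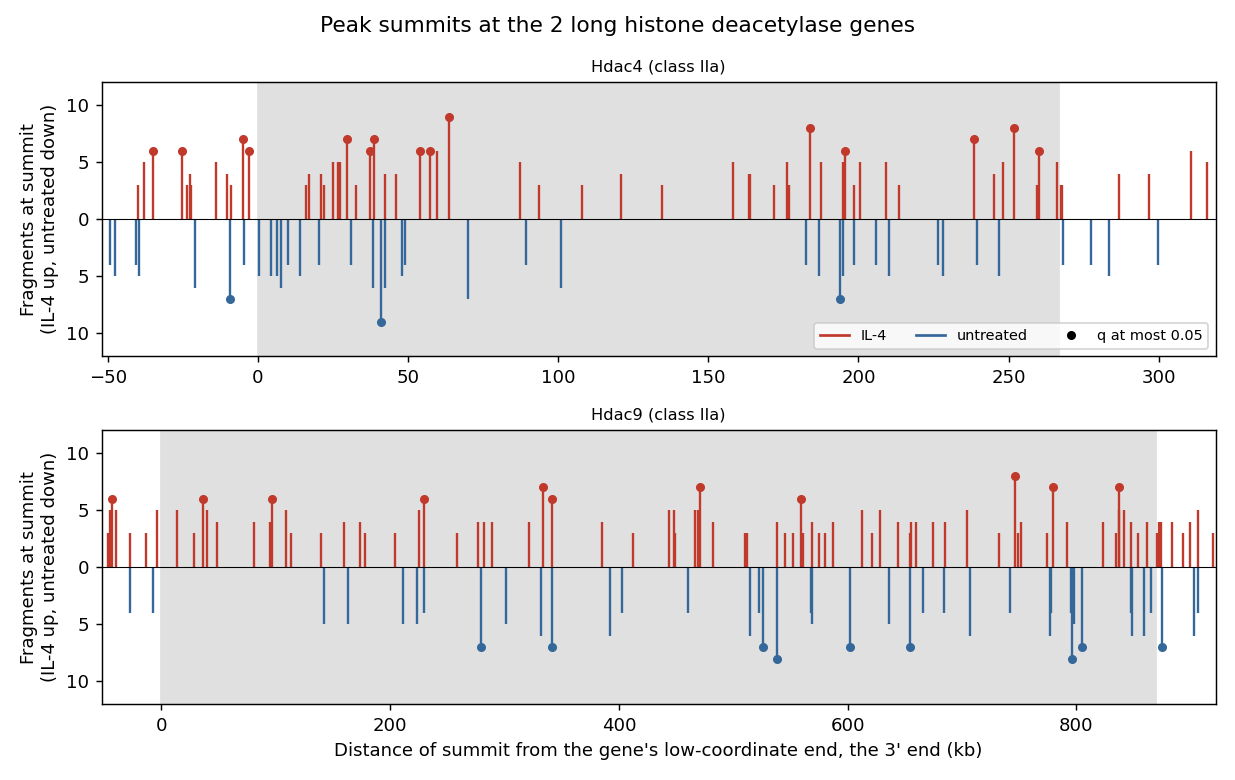
Summits along Hdac4 and Hdac9 are placed by distance in kb from the 3′ end, with fragments upward for IL-4 and downward for untreated, dots at q of at most 0.05 and grey for the gene. Hdac4 has 15 dotted IL-4 peaks and 3 dotted untreated peaks, and Hdac9 has 11 and 9.

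The lists seldom marked the same site, over all peaks and at these genes, where the overlapped shares were nominally higher. Of the 267 IL-4 peaks 23 overlapped an untreated peak by at least 1 bp (8.61%, 5.81 to 12.6), and of the 140 untreated peaks 23 did (16.4%, 11.2 to 23.4), against 5.42% and 8.73% of all peaks. Class I gave 4 of 44 (9.09%, 3.59 to 21.2) and the others 19 of 223 (8.52%, 5.52 to 12.9). Hdac10 had no such site. At these 23 sites the IL-4 peaks had 3 to 8 fragments and the untreated peaks 4 to 8. IL-4 peaks had more fragments than the untreated ones at 3 sites, fewer at 14 and as many at 6. Their fold over the local background, which was lower in the IL-4 library, was the higher one at 14 sites, so the direction at these sites depended on the scale. Only 1 site passed a q of 0.05 in both lists, inside Hdac9 from 34389503 to 34389775, with 6 (2.2 to 13.1) and 7 (2.81 to 14.4) fragments and summits 8 bp apart. The sites with most fragments in both lists lay 23543 bp beyond the 3′ end of Hdac11, with 8 each and folds of 4.39 and 3.34.

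Among genes of the complexes that class I enzymes belong to, IL-4 gene-end peaks stood at more genes than not in each of 5 lists. For the Sin3 complex the IL-4 list had one at 11 of 13 genes and the untreated list at 3, for the NCoR and SMRT complex at 6 of 6 and 3, for NuRD at 7 of 10 and 5, for CoREST at 6 of 9 and 2, and for the MiDAC and MIER genes at 3 of 5 and 0. Sirtuins, the deacetylases that use NAD, had 5 of 7 and 1. Class IIa partners (MEF2 factors, 14-3-3 proteins, kinases of these enzymes and Bcl6) had 5 of 15 and 2, and histone acetyltransferases, which do the opposite reaction, 4 of 11 and 0. Pooled, 47 of 76 such genes (61.8%) had an IL-4 gene-end peak and 16 (21.1%) an untreated one, beside 49.3% and 22.7%.

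At q of at most 0.05 the pooled shares were 38.2% (29 of 76) and 5.26% (4 of 76), beside 18.3% and 4.02%, with 9 of 13 Sin3 genes and 4 of 6 NCoR and SMRT genes in the IL-4 list. Past a −log10 q of 5 stood IL-4 gene-end peaks of 4 of the 76 genes (5.26%), beside 2.63% of all genes. The PHD-finger subunit genes Ing1 and Ing2 of the Sin3 complex had 14 fragments (7.65 to 23.5) and 13 (6.92 to 22.2), at 5.74 and 6.66, and Suds3, of the same complex, had 12 (6.20 to 21.0) at 6.45. Gatad2a of NuRD had 11 (5.49 to 19.7) at 6.45, and an untreated peak of 11 at 4.26 at the same end. Ing1 also had an untreated peak at the same end, of 4 fragments (1.09 to 10.2) at 0.408. No gene of these lists reached a −log10 q of 5 in the untreated list, beside 0.0548% of all genes. Sap30, which bridges Sin3 and Hdac1, had 10 IL-4 fragments at 3.86, and Ncor1 had an IL-4 peak of 6 and an untreated peak of 5. The lists were not tested for enrichment.

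**Figure D5:**
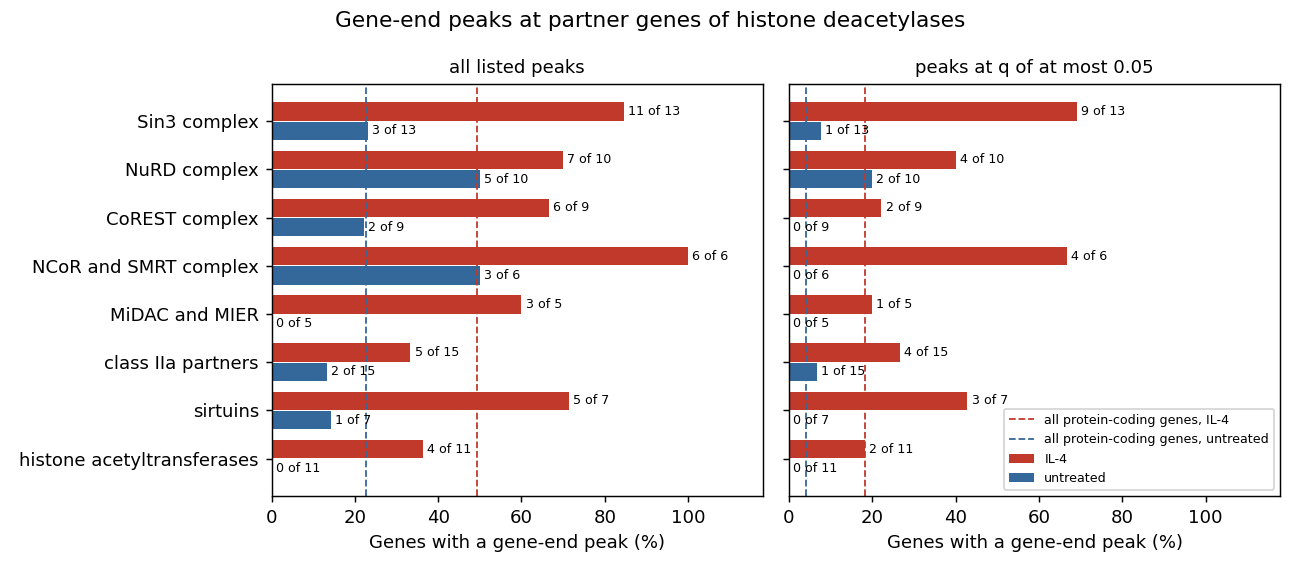
Bars give the percent of each list's genes that had a gene-end peak, IL-4 above untreated, for every listed peak and for peaks at q of at most 0.05. Dashed lines give the same over all protein-coding genes (49.3% and 22.7%, then 18.3% and 4.02%), and for every listed peak the IL-4 line is passed by all lists but the class IIa partners (5 of 15) and the histone acetyltransferases (4 of 11).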

How the data were processed

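The authors deposited 1 narrowPeak list per library. Per the submitters' processing notes, Bowtie 0.12.8, MACS2 2.2.7.1, DiffBind and mm10 were used, without role or order; the control, duplicate handling and total reads were not given in the sources used here. Per the file layout, the deposited values were peak start, end and summit, a score (10 times −log10 p, decimals dropped), the fold over local background (a ratio), −log10 p and −log10 q. The lowest deposited −log10 p was 2.00 in both lists. Fragments at each summit were solved from the deposited fold, (fragments + 1)/(background + 1), and −log10 p (upper Poisson tail), within 0.01 for 100% of entries. The solver was tested on simulated data. Fragment intervals are exact Poisson and shares have Wilson 95% intervals, which cover counting error only, since fragments from PCR are not independent molecules. Repeat summits of an interval were reduced to 1, which removed 654 IL-4 and 203 untreated entries. Genes came from RefSeq GRCm38.p6, without exons. Strand was known only for the 6 members with a listed promoter. With 1 library per group no test was made. All 9 members are named, with partner genes past a −log10 q of 5. Sap30 and Ncor1 and the peaks described in the text beyond the strongest and the gene-end ones were picked after their values were seen. The members and lists were chosen with earlier results of these data known. Alternatives changed thresholds, windows, list length, summits and overlap. Python 3.11.15, pandas 2.3.3, scipy 1.17.1 and matplotlib 3.10.9 were used.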

Additional observations from a re-analysis of the deposited data

How the results depend on the processing

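No paired analysis was possible because each group had 1 library. Shares in the IL-4 list stayed within the interval of the value reported for class I in 9 of 12 alternatives and for the other genes in 13 of 15. The exceptions for class I (73.3%) were 93.8% with 10 kb flanks, 100% (6 of 6 peaks) in gene bodies and 100% (1 of 1 peak) past a −log10 q of 5. For the others (64.3%) they were 51.9% with lists of equal length and 54.2% with peaks of at least 4 fragments, where all genes pooled gave 52.5% and 55.4% and class I 63.6% and 65.2%. Without each member in turn, shares were 69.2% to 79.5% for class I and 62.3% to 66.0% for the others.

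Members with an IL-4 gene-end peak (7) and with one in the IL-4 list only (4) were 1 and 1 at q of at most 0.05, and 1 and 1 past a −log10 q of 5; with an untreated one (3), 0 at that level. At q of at most 0.05, 2 members had at least 2 times as many IL-4 peaks, 3 with equal lists, 3 with at least 4 fragments and 1 past a −log10 q of 5, in place of 5. Of all genes 40.6% passed with all peaks and 20.6% with at least 4 fragments. Their share at the other settings was not counted. The overlapped share of IL-4 peaks (8.61%) was 2.63% at q of at most 0.05 and 0% (0 of 1) past a −log10 q of 5, where the other genes had no peak and so no share. The causes were not tested, beyond the fewer peaks that each threshold leaves. Listed starts as gene ends, and leaving out peaks at other genes' ends, were chosen after seeing the data. The IL-4 peaks of these genes had a median of 4 fragments and the untreated ones 5, which sets the width of their counting intervals.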
